A study of Mus musculus with 48 samples.

Results

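Dendritic cells are the leukocytes that carry antigen to T cells, and they come in subsets that are told apart by marker genes. Levels of 10 such genes were followed in bulk RNA-seq of 48 mouse sarcomas. The 10 were the rows of the deposited count table, out of 36854, whose Ensembl identifier maps to a fixed set of symbols. Xcr1, Clec9a, Batf3 and Itgae mark conventional type 1 dendritic cells, Ccr7, Ccl22 and Fscn1 mark migratory (mature) dendritic cells, Siglech marks plasmacytoid dendritic cells, and Flt3 and Zbtb46 are general dendritic cell markers. All 10 passed the filter on low counts in the allografts, in the primary tumours and in both kinds together, so none was left out of a test.

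Conventional type 1 dendritic cells take up dead cells and present their antigens to CD8 T cells, the step called cross-presentation. Their development depends on the transcription factor BATF3, they sense exposed actin of dying cells through CLEC9A, and they respond to the T and NK cell chemokine XCL1 through the receptor XCR1. After maturation, dendritic cells of either conventional type switch on CCR7, which guides them along lymphatic vessels to lymph nodes, the chemokine CCL22, which attracts regulatory T cells, and the actin-bundling protein fascin (Fscn1). Plasmacytoid dendritic cells make type I interferon, and growth of all these lineages depends on the receptor FLT3.

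The primary tumours arose in mice of strain 129/SvJae with floxed p53 alleles, aged 6 to 10 weeks, after an adenovirus carrying Cre was injected into the gastrocnemius muscle, followed by 300 µg of the carcinogen MCA. The allografts came from 50000 cells of 1 line, 402230, itself a p53/MCA sarcoma, injected with matrigel into the same muscle of syngeneic mice, so that all 16 allografts share the tumour cells of a single line. Deletion of p53 and exposure to MCA thus belong to the tumours of every group, controls included. At about 150 mm3 the mice received 200 µg of muDX400, a murine antibody against the inhibitory T cell receptor PD-1, or an isotype control, and then 0 or 20 Gy to the hind limb, and tumours were taken 3 days later. This gave 4 groups of 4 allografts and 4 groups of 8 primary tumours. Each tumour has its own number in the labels, which do not otherwise say that tumours of a group came from separate animals, so that p-values measure the spread between these samples. Totals were 31.8 to 54.0 M counts a tumour, and 3 counts, the floor used here, stood for 0.0536 to 0.101 counts-per-million (CPM). All CPM were scaled with TMM factors, which set aside the most extreme genes of each library.

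RefSeq promoter windows (GRCm38.p6, 250 bases before and 50 after the gene start) matched 8 of the 10 genes, all except Itgae and Ccr7. The 250 bases before the start are printed for Xcr1 and Clec9a, the type 1 markers with the highest Pearson's r in primaries, and for Batf3 and Ccl22, whose levels rose with 20 Gy in primaries and with the combination in both kinds. The windows were searched on both strands for letters of the interferon element ISRE (GAAA and GAAA with 2 bases between them), a STAT site (TTCNNNGAA), an NF-kappaB site (GGG and TTTCC with 2 bases between them), AP-1 (TGANTCA), an E-box (CAGGTG) and the TATA box (TATAAA), with matches in capitals.
Xcr1, chr9:123862030-123862279, minus strand: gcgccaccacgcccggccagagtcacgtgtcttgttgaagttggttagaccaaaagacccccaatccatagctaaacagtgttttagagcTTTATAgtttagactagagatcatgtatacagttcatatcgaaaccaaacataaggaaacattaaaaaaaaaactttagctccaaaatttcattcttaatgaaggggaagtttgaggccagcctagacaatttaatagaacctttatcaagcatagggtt
Clec9a, chr6:129408612-129408861, plus strand: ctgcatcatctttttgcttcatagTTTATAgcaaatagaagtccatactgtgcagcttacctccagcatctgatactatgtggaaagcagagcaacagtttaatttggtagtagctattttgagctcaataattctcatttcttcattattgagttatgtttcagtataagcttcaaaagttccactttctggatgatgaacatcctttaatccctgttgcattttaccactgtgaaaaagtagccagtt
Batf3, chr1:191098164-191098413, plus strand: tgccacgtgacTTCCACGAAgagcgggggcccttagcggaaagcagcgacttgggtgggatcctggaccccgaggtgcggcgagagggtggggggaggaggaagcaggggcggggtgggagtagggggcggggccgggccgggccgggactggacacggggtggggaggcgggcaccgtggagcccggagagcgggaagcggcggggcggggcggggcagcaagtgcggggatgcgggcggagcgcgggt
Ccl22, chr8:94745434-94745683, plus strand: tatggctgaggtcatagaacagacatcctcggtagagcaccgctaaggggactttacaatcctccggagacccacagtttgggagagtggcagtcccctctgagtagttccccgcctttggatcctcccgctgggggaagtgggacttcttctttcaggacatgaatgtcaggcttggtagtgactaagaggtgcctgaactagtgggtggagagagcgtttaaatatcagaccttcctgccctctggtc
The capitals mark TATA letters on the opposite strand, 160 bases before the start in Xcr1 and 226 in Clec9a, and STAT letters 239 bases before the start in Batf3. Ccl22 had no match in the printed bases and an E-box 6 bases after the start. Of the genes not printed, Siglech held a STAT and an E-box match, Zbtb46 an AP-1 and an E-box match, and Fscn1 a TATA match 31 bases before the start. None of the 8 windows held ISRE or NF-kappaB letters, which 3.43% and 1.63% of 32817 windows held. The TATA letters were in 13.6% of windows, the STAT letters in 8.29%, the E-box in 20.2% and AP-1 in 7.81%. These are matches of letters only. Base composition differed between the receptors Xcr1 and Clec9a and the transcription factor Batf3. The windows of Xcr1 and Clec9a had 40.0% and 37.0% G and C with 6 and 1 CpG pairs, that of Batf3 had 75.7% and 34, and the median window had 52.7% and 7.

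Of the 10 genes, 9 were rare transcripts and Fscn1 was abundant. Compared per kilobase of transcript, median levels over the 48 tumours ran from 0.286 CPM per kb for Xcr1, 0.293 for Clec9a, 0.431 for Flt3, 0.458 for Itgae and 0.921 for Zbtb46 to 1.15 for Ccl22, 1.39 for Siglech, 2.16 for Ccr7 and 2.29 for Batf3. Fscn1 stood at 118.3 CPM per kb and at 134.1 CPM or more in every tumour. Fascin is known from many mesenchymal and tumour cells as well, so the label of Fscn1 as a dendritic cell marker was checked against its neighbours below. The lowest levels of the set were both in primary tumour 6 of those given 20 Gy with anti-PD-1. It had 1 count of Xcr1 and 0 counts of Clec9a, which allows up to 0.0686 CPM. In bulk RNA, fewer cells of a type and less RNA per cell cannot be told apart, and this holds for every level below.

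**Figure D1:**
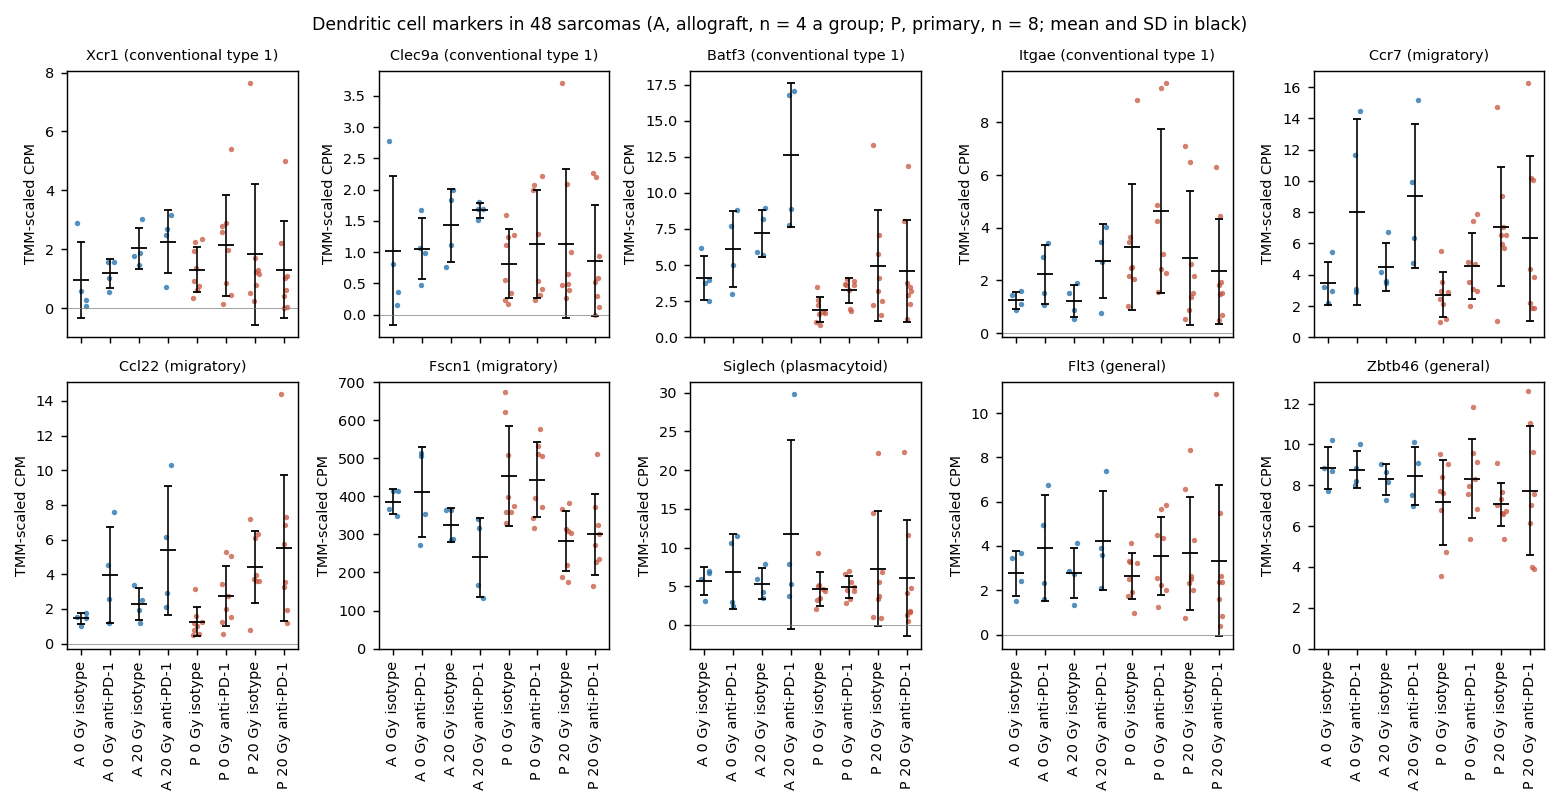
Level of each of the 10 genes in each of the 48 tumours, as TMM-scaled CPM on a linear axis from 0, in 4 allograft groups (A, n = 4) and 4 primary groups (P, n = 8); coloured points are tumours, black marks are the mean and SD. The highest point lies in an irradiated group for every gene except Itgae and Fscn1, Fscn1 has its lowest there, and Zbtb46 stays between 3.57 and 12.6 CPM.

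The order of the 8 group means separated few groups. Batf3 ran from 12.6 ± 4.99 CPM (SD, n = 4) in allografts given 20 Gy with anti-PD-1 to 1.92 ± 0.843 (SD, n = 8) in primary tumours given 0 Gy with isotype, a ratio of 6.59. Of its 7 steps between neighbours, 2 were larger than both SDs, the one below the highest group and the one above the lowest. Fscn1 had 1 such step, from 0 Gy isotype allografts to the irradiated groups below them, and the other 8 genes had 0. The highest group mean exceeded the lowest 4.39 times for Ccl22, 3.83 times for Itgae, 3.33 times for Ccr7, 2.5 times for Siglech, 2.36 times for Xcr1, 2.05 times for Clec9a, 1.89 times for Fscn1, 1.61 times for Flt3 and 1.26 times for Zbtb46.

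In primary tumours, 20 Gy with isotype asks what radiation alone does to these markers. Transcripts of 3 of the 10 genes rose and 1 fell by edgeR's quasi-likelihood test with Benjamini-Hochberg adjustment over all genes tested (adjusted p below 0.05). Of all 17770 genes tested, 7.85% rose and 6.64% fell. The median log2 fold change was 0.49 over the 10 genes and -0.02 over all genes. The genes that rose were Ccl22, Ccr7 and Batf3, and the one that fell was Fscn1. Xcr1, Clec9a, Itgae, Siglech, Flt3 and Zbtb46 did not pass.

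The chemokine gene Ccl22 ran from 0.481 CPM through a median of 1.10 to 3.12 in the 8 unirradiated isotype primaries. With 20 Gy it ran from 0.771 through 3.85 to 7.21. Of the 8 irradiated tumours, 7 were above every control tumour and the lowest was within their range. The log2 fold change was 1.82 with SE 0.488 (edgeR, adjusted p = 0.0115). With 20 Gy and anti-PD-1 the levels ran from 1.19 through 4.65 to 14.4 CPM, 6 of 8 above every control, with a log2 fold change of 2.14, SE 0.493 (edgeR, adjusted p = 0.00399). Both comparisons use the same 8 control tumours. In the combination 2 of the 10 genes rose in edgeR, Ccl22 and Batf3, and 0 fell, against 8.78% and 4.98% of all genes. DESeq2 called Ccr7 higher and Fscn1 lower as well, 3 and 1 of the 10 against 12.8% and 5.81% of its genes. Ccl22 stayed past the threshold without any 1 tumour, at adjusted p of at most 0.0286 for 20 Gy and 0.0149 for the combination.

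Ccr7, the lymph-node homing receptor, ran from 0.988 CPM through a median of 2.68 to 5.53 in the same controls. After 20 Gy it ran from 1.04 through 6.55 to 14.7, and again 7 of 8 tumours were above every control. Its log2 fold change was 1.40 with SE 0.458 (edgeR, adjusted p = 0.0374). This call was lost when genes of low count were kept (1.39, adjusted p = 0.0588), with Xist status as a covariate (1.15, adjusted p = 0.113) or with the mean log2 level of muscle genes as a covariate (1.16, adjusted p = 0.0737). It was lost without any of 8 tumours, controls 1, 3, 5, 7 and 8 and irradiated tumours 1, 5 and 6, at most at 0.105 without irradiated tumour 5. Xist states were spread unevenly over these groups. Xist, a transcript of female cells, exceeded 10 CPM in 5 of the 8 control primaries. It did so in 2 of 8 primaries given 20 Gy with isotype and in 3 of 8 in the combination. With 20 Gy and anti-PD-1 the 8 tumours ran from 1.86 through 4.12 to 16.3 CPM and 3 exceeded every control. That difference was 1.24 on the log2 scale with SE 0.456 (edgeR, adjusted p = 0.0653) and did not pass, although it did in DESeq2 (0.0243).

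Fscn1 moved against the other 2 migratory markers. In the controls it ran from 330.4 CPM through 387 to 674, and after 20 Gy from 174 through 307 to 382. Of the 8 irradiated tumours 6 were below every control. The log2 fold change was -0.67 with SE 0.205 (edgeR, adjusted p = 0.0259), and the call was lost without any of 6 tumours, controls 1, 2 and 3 and irradiated tumours 3, 5 and 6 (adjusted p up to 0.0769). In the combination, levels of 163 to 511 CPM with a median of 287 gave -0.58 with SE 0.204 (edgeR, adjusted p = 0.0555; DESeq2, -0.54, adjusted p = 0.048). Markers of fibroblasts and sarcoma cells had a median log2 fold change of -0.41 after 20 Gy with isotype, and 0 of the 8 such genes fell past the threshold. Their part in the Fscn1 result was not tested.

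Among the type 1 markers, only Batf3 passed in the primary tumours. Its 8 controls ran from 0.882 CPM through 1.72 to 3.498 and the 20 Gy isotype tumours from 1.57 through 3.67 to 13.3, with 4 of 8 above every control. The log2 fold change was 1.39 with SE 0.412 (edgeR, adjusted p = 0.0216), and without irradiated tumour 5, the one at 13.3 CPM, it was 1.02 (adjusted p = 0.0942). In the combination Batf3 ran from 1.26 through 3.33 to 11.8 CPM with a log2 fold change of 1.28, SE 0.411 (edgeR, adjusted p = 0.0353). That call was lost under 4 of 8 other settings (no filter, Xist status, the muscle covariate, only the groups compared), at 1.28, 1.21, 1.19 and 1.32, and without any of 7 tumours. They were controls 1, 2, 5, 7 and 8 and combination tumours 3 and 4, and the value was 0.93 (adjusted p = 0.123) without combination tumour 3.

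Xcr1 and Clec9a, surface receptors largely restricted to the type, did not pass, and they varied widely within groups. In the primary controls Xcr1 ran from 0.347 CPM through 1.15 to 2.34. After 20 Gy with isotype it ran from 0.259 through 1.20 to 7.65, and with the combination from 0.0229 through 0.825 to 4.999. The medians of the first 2 groups were close and all 3 groups overlapped. The log2 fold changes were 0.49 with SE 0.735 (edgeR, adjusted p = 0.693, 95% interval -0.95 to 1.93) and 0.00 with SE 0.739 (95% interval -1.44 to 1.45). These intervals do not show that Xcr1 stayed level. Clec9a gave 0.49 with SE 0.693 after 20 Gy and 0.09 in the combination. Its medians were 0.836 CPM in the controls, 0.572 after 20 Gy and 0.555 in the combination.

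Itgae, the gene of the CD103 integrin chain that is carried by type 1 dendritic cells and also by resident CD8 T cells, had a median of 2.49 CPM in the primary controls (1.04 to 8.86). The median was 1.85 after 20 Gy (0.522 to 7.10) and 1.67 in the combination (0.503 to 6.31). The log2 fold changes of -0.19 and -0.47 did not pass. The summed level of 10 T cell genes ran from 22.0 to 92.5 CPM in those controls, from 17.2 to 172.5 after 20 Gy and from 8.47 to 357 in the combination, and 0 of the 10 T cell genes passed in either comparison. What T cells contributed to Itgae was not tested.

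Siglech, a lectin of plasmacytoid dendritic cells, had nearly the same median in the primary controls (4.55 CPM, 2.03 to 9.36) and after 20 Gy with isotype (4.63, 0.929 to 22.2). It was 2.99 in the combination (0.547 to 22.4). Its range widened at both ends, with 2 tumours above and 2 below every control after 20 Gy. The log2 fold changes were 0.65 with SE 0.59 and 0.38, neither past the threshold. Flt3, the growth factor receptor, ran from 0.950 to 4.15 CPM in the controls, from 0.726 to 8.31 after 20 Gy and from 0.383 to 10.9 in the combination. It gave 0.49 with SE 0.495 and 0.35. Zbtb46, a transcription factor of conventional dendritic cells and of endothelium, gave -0.01 and 0.13 and was the steadiest of the set.

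**Figure D2:**
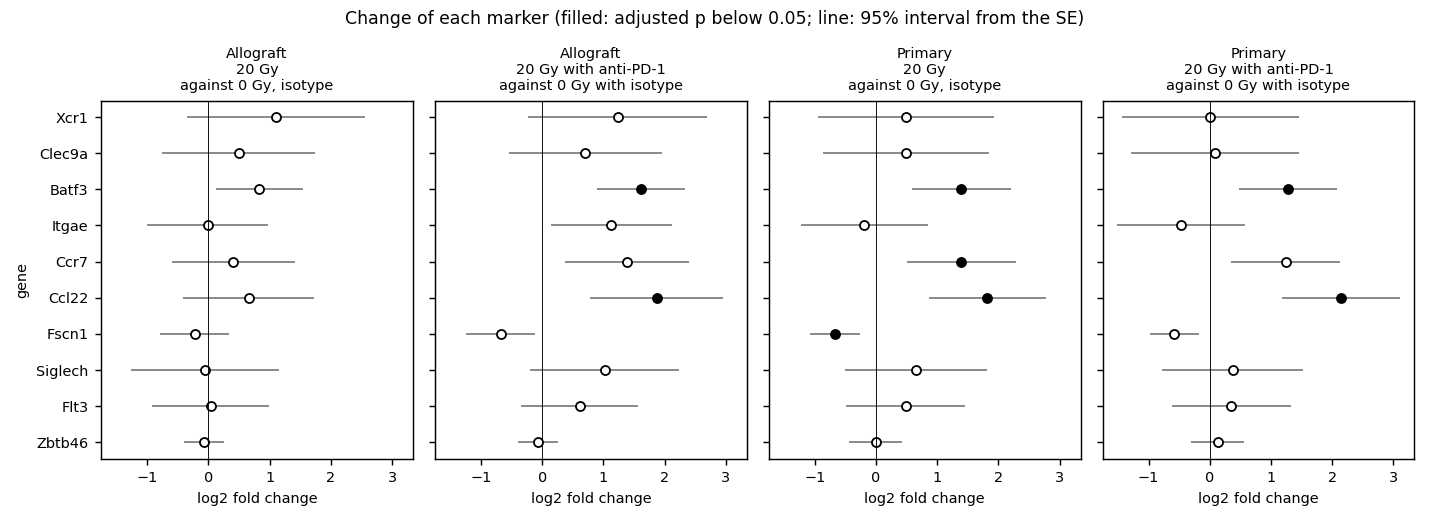
Log2 fold change of each gene (horizontal axis) in the 20 Gy and combination comparisons of each tumour kind, every one against 0 Gy with isotype; lines are 95% intervals from the SE and filled points have an adjusted p below 0.05. Filled points stand at Batf3, Ccr7, Ccl22 and Fscn1 for 20 Gy in primary tumours, and at Batf3 and Ccl22 for the combination in both kinds.

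In the allografts, 0 of the 10 genes passed after 20 Gy with isotype by edgeR (1 at an unadjusted p under 0.05, against 18.2% of all genes, and 0 past the threshold in DESeq2). Of 17746 genes tested, 5.14% passed, 4.40% upward and 0.744% downward. Batf3 was at 3.75, 3.99, 6.17 and 2.53 CPM in the 4 controls and at 8.18, 5.90, 8.96 and 5.72 after 20 Gy. Of the 4 irradiated tumours 2 were above every control, and the log2 fold change of 0.83 with SE 0.36 had an adjusted p of 0.232 (edgeR). Xcr1 was at 0.573, 0.298, 2.88 and 0.0897 CPM in the controls and at 1.87, 1.78, 3.04 and 1.47 after 20 Gy. The third control lay far above the other 3. Over all 8 tumours the log2 fold change was 1.10 with SE 0.744 (edgeR, adjusted p = 0.481), and without that control it was 2.70 (adjusted p = 0.0165). Clec9a, at 0.49 over all 8 tumours, was at 1.71 without the same control (adjusted p = 0.0632). The other estimates were -0.01 for Itgae, 0.41 for Ccr7, 0.66 for Ccl22, -0.22 for Fscn1, -0.06 for Siglech, 0.04 for Flt3 and -0.07 for Zbtb46, with an adjusted p of 0.587 or more (edgeR).

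These 2 groups of allografts also differed in their identifiers and in Xist. All 4 controls but 1 of 4 irradiated tumours have an identifier starting with 5, and Xist, a transcript of female cells, exceeded 10 CPM in 1 of 4 controls and 3 of 4 irradiated tumours. The digit thus separates dose groups almost completely, and both Xist states occur in each. With the digit as a covariate the estimate was 1.01 for Siglech, 0.75 for Itgae and -0.11 for Clec9a, and with Xist status it was 0.0074, 0.088 and 0.25. With either covariate 0 of the 10 passed. Shares of all genes in those fits are not given here, so this count cannot be set against them.

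With 20 Gy and anti-PD-1, 2 of the 10 genes rose in the allografts in edgeR, Batf3 and Ccl22, and 0 fell, against 7.43% and 2.23% of all genes (9.66% together). DESeq2 called Ccr7 higher as well, 3 of the 10 against 10.2% of its genes. The median log2 fold change was 1.08 over the 10 and -0.04 over all genes. Batf3 reached 7.77, 17.1, 16.8 and 8.88 CPM, each above all 4 controls. Its log2 fold change was 1.61 with SE 0.365 (edgeR, adjusted p = 0.012), and it held without any 1 tumour at an adjusted p of at most 0.046. With all 48 tumours in 1 fit the call was lost (1.62, adjusted p = 0.073). Ccl22 was at 1.002, 1.49, 1.53 and 1.79 CPM in the controls and at 2.13, 10.3, 6.13 and 2.95 in the combination, again with no overlap. It gave 1.87 with SE 0.556 (edgeR, adjusted p = 0.0461), just under the threshold, and was lost under 3 of 8 other settings (the muscle covariate, all 48 tumours in 1 fit, only the groups compared), at 1.67, 1.89 and 1.93. It was also lost without any 1 of 11 of the 16 allografts in the fit. They were all 4 controls, tumours 2 and 3 of the combination, tumours 1 and 2 given anti-PD-1 alone and tumours 2, 3 and 4 given 20 Gy alone, with 1.39 (adjusted p = 0.158) without combination tumour 2.

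Fscn1 fell short of a call in the allografts (log2 fold change -0.68, SE 0.289, adjusted p = 0.162 by edgeR) while its groups stood apart, at 413, 414, 368 and 349 CPM in the controls and 339, 134.1, 166 and 318 in the combination. Levels without overlap were thus seen for 2 genes upward and 1 downward, against 8.94% and 5.07% of all genes, and in no other comparison for any of the 10. Ccr7 was at 2.17, 5.43, 3.22 and 2.98 CPM in the controls and at 4.73, 15.2, 9.91 and 6.37 in the combination. Its log2 fold change of 1.38 with SE 0.516 had an adjusted p of 0.109 in edgeR and 0.0428 in DESeq2. Itgae, at 0.859, 1.58, 1.44 and 1.10 CPM against 0.780, 4.01, 3.46 and 2.69, gave 1.13 with SE 0.504 (edgeR, adjusted p = 0.181). Clec9a was at 0.811, 0.367, 2.77 and 0.157 CPM in the controls and at 1.69, 1.69, 1.51 and 1.80 in the combination, the narrowest spread of any group of this gene. The third control was again the exception, and without it Clec9a (1.91, adjusted p = 0.0321) and Xcr1 (2.83, adjusted p = 0.00999) both passed in edgeR.

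Siglech showed how much 1 allograft can carry. Its combination values were 3.79, 29.8, 7.89 and 5.25 CPM against 3.10, 6.67, 5.94 and 7.00 in the controls, and the log2 fold change of 1.02 with SE 0.623 did not pass. The tumour at 29.8 CPM was the highest of its group in 7 of the 10 genes and the lowest in Fscn1. It also had the highest Ptprc, the pan-leukocyte gene of CD45 (620 CPM against 490 to 503), and the highest Adgre1, the macrophage gene of F4/80 (583 against 238 to 244). A single tumour led its group in 7 of the 10 genes in 4 more groups, allografts given anti-PD-1 alone or 20 Gy alone and both irradiated primary groups.

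The anti-PD-1 antibody alone moved none of the 10 genes past the threshold, with or without radiation, and no gene of the whole table passed in these 4 comparisons in edgeR (0% of 17746 or 17770). DESeq2 called none in allografts, 3 genes in primaries at 0 Gy (0.00563% higher, 0.0113% lower) and 5 at 20 Gy (0.0225% and 0.00563%), none of them among the 10. At 0 Gy, 2 members had an unadjusted p under 0.05 in allografts and 1 in primaries, and at 20 Gy 3 and 0, by edgeR. The shares of all genes at that threshold were 1.68% and 2.32% at 0 Gy and 3.84% and 8.12% at 20 Gy. At the adjusted threshold DESeq2 called 0 in each. The largest value was that of Ccl22. In unirradiated allografts it was at 4.53, 2.57, 7.58 and 1.19 CPM with anti-PD-1 against 1.002 to 1.79 with isotype, a log2 fold change of 1.43 with SE 0.55 (edgeR, adjusted p = 1). In unirradiated primaries the median was 2.38 CPM against 1.10, with a log2 fold change of 1.12, SE 0.48 (edgeR, adjusted p = 1). Radiation on top of anti-PD-1 called 0 of the 10 in either kind, against 3.96% of genes in allografts and 7.92% in primaries, where 6.06% rose and 1.86% fell (edgeR, 2 at an unadjusted p under 0.05 in each, as were 19.5% and 23.6% of all genes; DESeq2, 0 past the adjusted threshold in each). The closest were Batf3 in allografts (1.05, SE 0.359, adjusted p = 0.117) and Fscn1 in primaries (-0.55, SE 0.204, adjusted p = 0.0926).

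Whether the response differed between the kinds was tested directly. In the tumour kind by dose interaction, 0 of the 10 passed (edgeR, 0 at an unadjusted p under 0.05, against 9.90% of all genes; DESeq2, 0 past the adjusted threshold), and 0.00517% of 19327 genes did. The estimates with the smallest p were Ccl22 at 1.17 (SE 0.794) and Ccr7 at 1.01 (SE 0.751), primary minus allograft, with an adjusted p of 0.595 and 0.622. The Xcr1 interval ran from -2.95 to 1.73, so a difference of several fold in either direction was not resolved. In the combination the estimate farthest from 0 was Itgae at -1.62 with SE 0.86 (edgeR, adjusted p = 0.8), and 0% of all genes passed. In primaries 9 of 10 estimates of the dose by antibody interaction were negative with a median of -0.79, over all genes 56.1% were positive with a median of 0.05, and 0 of the 10 and 0% of all genes passed (edgeR, smallest adjusted p of the 10 0.971). In allografts that interaction ran from -0.54 for Fscn1 to 0.83 for Siglech, and 0 of the 10 and 0% of all genes passed (edgeR, smallest adjusted p of the 10 0.864). The kind by dose interaction among tumours given anti-PD-1 ran from -1.65 for Xcr1 to 0.57 for Ccl22, and the kind by antibody interaction at 0 Gy from -0.47 for Ccr7 to 0.43 for Clec9a, with 0 of the 10 and 0% of 19327 genes passing in either (edgeR).

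Without radiation or anti-PD-1, primaries and allografts differed most in Batf3 and Itgae, in opposite directions. Batf3 had a median of 1.72 CPM in the 8 primaries and 2.53 to 6.17 in the 4 allografts, with 6 of 8 primaries below every allograft. The log2 difference, primary minus allograft, was -1.10 with SE 0.359 (edgeR, adjusted p = 0.071; DESeq2, 0.0216). Itgae had a median of 2.49 CPM in the primaries and 0.859 to 1.58 in the allografts, with 7 of 8 primaries above every allograft, and a difference of 1.39 with SE 0.492 (edgeR, adjusted p = 0.0939; DESeq2, 0.0267). Thus 0 of the 10 passed in edgeR (2 at an unadjusted p under 0.05, against 26.1% of all genes) where 10.0% of 17357 genes did (6.03% higher in primaries, 3.99% lower), and 2 passed in DESeq2, where 9.74% of genes were higher in primaries and 6.80% lower. Under the other treatments 0 of the 10 passed between the kinds in edgeR as well. With anti-PD-1 at 0 Gy 8.94% of all genes differed (4.94% higher in primaries, 3.99% lower). At 20 Gy with isotype 4.76% differed (2.40% lower), and at 20 Gy with anti-PD-1 0.00566% did. At an unadjusted p under 0.05 these gave 1, 0 and 1 of the 10, against 24.8%, 19.9% and 16.8% of all genes (edgeR), and DESeq2 called 1, 0 and 0, the first being Batf3 (-0.88, adjusted p = 0.0389). With anti-PD-1 at 0 Gy DESeq2 called 1566 of 17408 genes higher in primaries and 6.84% lower. It called 6.32% and 4.34% at 20 Gy with isotype, and 4.15% and 1.55% at 20 Gy with anti-PD-1. Of 10 T cell genes 5 were lower in the primaries (edgeR), with a median difference of -1.51. All 4 control allografts and none of the 8 control primaries have an identifier starting with 5, so that this digit and the tumour kind cannot be told apart here.

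Other genes of the same cell types were read from lists of genes that hold none of the 10. Of 19 migratory genes tested, 9 rose and 1 fell in primaries after 20 Gy with isotype, with a median log2 fold change of 1.07. The share of all genes that rose, for this list and those that follow, was 7.85% in this comparison, 8.78% in the primary combination, 4.40% in allografts after 20 Gy and 7.43% in the allograft combination. The migratory genes included the T cell co-stimulators Cd80 (from 1.98 to 9.07 CPM, log2 2.21, SE 0.336, adjusted p = 7.67e-05) and Cd86 (from 15.2 to 42.6 CPM, 1.503, SE 0.302, adjusted p = 0.00106). In the combination 8 of 19 rose in primaries and 8 of 19 in allografts, among them Cd40, the receptor through which T helper cells license dendritic cells, from 12.3 to 66.0 CPM in allografts (2.41, SE 0.456, adjusted p = 0.00467). After 20 Gy with isotype in allografts 2 of 19 rose, Traf1 and Zmynd15. Macrophages also express Cd80, Cd86 and Cd40, and their part was not tested.

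Of 14 further type 1 genes, 5 rose in primaries after 20 Gy, 5 in the combination, 4 in allografts after 20 Gy and 8 in the combination, and 0 fell. Leading them were Ifi205, an interferon-induced gene, at 6.54 and 38.9 CPM in primaries without and with 20 Gy (log2 2.58, SE 0.461, adjusted p = 0.000354), and Tlr3, the sensor of double-stranded RNA, at 17.99 and 56.2 (1.65, SE 0.308, adjusted p = 0.000503). Irf8, a lineage factor shared with macrophages, rose from 57.6 to 126.3 CPM (1.15, SE 0.353, adjusted p = 0.0262).

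Of 14 plasmacytoid genes, 4 rose in primaries after 20 Gy and 3 in each of the other 3 comparisons. Tlr9, the sensor of unmethylated DNA, went from 17.3 to 54.8 CPM in primaries (1.68, SE 0.363, adjusted p = 0.00203) and from 25.5 to 117.2 in allografts (2.23, SE 0.442, adjusted p = 0.00961). Ly6a, which many activated cells carry, went from 171 to 763 CPM in primaries. Siglech, by contrast, did not pass in any comparison. Of the type 2 genes 1 of 11 rose in primaries after 20 Gy, Sirpa, which macrophages share (from 233 to 365 CPM, 0.66, SE 0.196, adjusted p = 0.0213). Of 8 general dendritic cell genes 2 rose there, Itgax, the gene of CD11c (from 8.52 to 34.5 CPM, 2.03, SE 0.306, adjusted p = 7.33e-05), and Jaml. For the type 2 and general lists, the combination and the allografts are not given here. All p-values in these lists are from edgeR and adjusted over all genes.

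Of 10 genes for ligands and partners, the growth factor gene Csf2 (GM-CSF) and the chemokine genes Ccl5 and Cxcl16 had the smallest p after 20 Gy with isotype in either kind. In primaries after 20 Gy, Ccl5 rose from 27.97 to 187.5 CPM (2.76, SE 0.468, adjusted p = 0.000209 by edgeR), Csf2 from 0.120 to 1.23 CPM (3.36, SE 0.729, adjusted p = 0.0021) and Cxcl16 from 96.0 to 205 CPM (1.11, SE 0.27, adjusted p = 0.00542). All 3 rose as well in allografts after 20 Gy (2.67, 2.43 and 0.90 for Ccl5, Csf2 and Cxcl16) in the allograft combination (2.45, 2.85 and 1.12) and in the primary combination (2.66, 4.15 and 0.89), where Itgb7 had a smaller p than Cxcl16. The other 7 were read whatever their values. Flt3l, the ligand of FLT3, rose in primaries after 20 Gy with isotype, from 1.77 ± 0.926 to 3.85 ± 1.46 CPM (SD, n = 8 each; log2 1.13, SE 0.306, adjusted p = 0.0117 by edgeR). In the primary combination it was at 2.28 ± 0.897 CPM and did not pass (0.38, SE 0.303, adjusted p = 0.429). Ccr4, the receptor for CCL22, rose in the allograft combination from 0.153 to 0.711 CPM (2.21, SE 0.589, adjusted p = 0.0273), and gave 1.56 in the primary combination (adjusted p = 0.0538). Itgb7, which pairs with CD103, rose in the primary combination from 27.5 to 75.6 CPM (1.48, SE 0.356, adjusted p = 0.00575), where Itgae itself did not. Xcl1, the ligand of XCR1, gave 1.21 in primaries after 20 Gy (adjusted p = 0.161) and 1.28 in the allograft combination (adjusted p = 0.0848). Neither it nor Cdh1, Ccl19 or Ccl21a, whose reads may be split among near-identical copies, passed in these 4 comparisons.

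Total leukocyte transcripts moved in the same comparisons. Of 8 pan-leukocyte genes 5 rose in primaries after 20 Gy, 4 in the primary combination, 4 in allografts after 20 Gy and 6 in the allograft combination. They included Laptm5 (from 246 to 472 CPM in primaries, 0.95, SE 0.201, adjusted p = 0.00163) and Cd53 (from 65.0 to 149 CPM, 1.21, SE 0.258, adjusted p = 0.00177). Ptprc went from 92.9 ± 26.1 to 195 ± 93.3 CPM in primaries (log2 1.09, SE 0.316, adjusted p = 0.0195 by edgeR), and from 143.9 ± 57.5 to 426 ± 83.0 in allografts (1.59, adjusted p = 0.00802). The summed 8 macrophage genes ran from 1509 to 2912 CPM in control primaries, from 1866 to 3677 after 20 Gy and from 766 to 5091 in the combination. Of them 4 and then 3 rose. In allografts the same sum ran from 1394 to 2122 CPM in controls, from 2527 to 3911 after 20 Gy and from 2591 to 4919 in the combination. There 2 rose after 20 Gy, Fcgr1 (1.58, adjusted p = 0.00321) and Cd68 (0.89, adjusted p = 0.0314). In the allograft combination, where Batf3 and Ccl22 rose, 5 did, led by Fcgr1 (1.92, adjusted p = 0.000908), Cd68 (1.10) and C1qa (1.23). The endothelial gene Kdr rose in allografts too (1.22 after 20 Gy and 0.92 in the combination), 1 of 6 endothelial genes in each. The summed 8 muscle genes reached 45450 CPM in 1 irradiated primary and 81660 in 1 combination primary, against 6003 at most in controls, with 0 of 8 called. B cell genes were scarce, with 0 of 8 at 1 CPM or more in every tumour, whereas 8 of 8 macrophage and 8 of 8 fibroblast genes were. Of 7 B cell genes tested 1 rose in primaries after 20 Gy, Pax5 (from 1.44 to 6.17 CPM, 2.11, SE 0.592, adjusted p = 0.0155 by edgeR). Of 6 neutrophil genes 1 rose in primaries after 20 Gy and 3 in the primary combination, Csf3r (from 20.0 to 108.5 CPM, 2.45, SE 0.441, adjusted p = 0.000463), Retnlg (4.06, adjusted p = 0.00919) and Cxcr2 (3.62, adjusted p = 0.0303). In the allograft combination 1 of 6 rose, Csf3r (1.63, SE 0.36, adjusted p = 0.0105). Their summed level ran from 103.8 to 2036 CPM in control primaries, from 143.9 to 844 after 20 Gy and from 136.7 to 2372 in the combination. Of 6 natural killer cell genes 2 rose in allografts after 20 Gy and 4 in the allograft combination, among them Ncr1 (from 1.82 to 6.995 CPM, 1.94, SE 0.343, adjusted p = 0.00329), Eomes (1.36) and Klre1 (1.86). Their sum ran from 32.7 to 69.2 CPM in control allografts, from 35.7 to 73.1 after 20 Gy and from 41.0 to 85.5 in the combination. What other leukocytes or muscle contributed to the changes of the 10 genes was not tested beyond the ratios to Ptprc and the muscle covariate.

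Each gene was also set against Ptprc in the same tumour. Ratios of each gene to Ptprc were compared on the log2 scale with a pseudocount of 0.1 CPM, by exact 2-sided permutation tests, with Benjamini-Hochberg adjustment over the 40 tests made. Percents of Ptprc in the text include the same pseudocount in both genes. Itgae was at a median of 3.02% of Ptprc in control primaries (1.47 to 12.2%), 1.51% after 20 Gy (0.564 to 2.18%) and 1.29% in the combination (0.712 to 1.71%). The log2 ratio fell by 1.40 after 20 Gy (exact p = 0.00233, adjusted 0.0311, 4 of 8 tumours below every control) and by 1.43 in the combination (exact p = 0.000622, adjusted 0.0249, 5 of 8). The ratio of Fscn1 fell by 1.67 after 20 Gy (exact p = 0.00218, adjusted 0.0311, 6 of 8). The other 37 tests, including all those in allografts, did not pass. The median gene lost ground to Ptprc, whose own level rose. At an unadjusted exact p under 0.05, the ratio was lower for 4 of the 10 genes after 20 Gy, against 67.4% of 17769 genes, and for 6 of the 10 in the combination, against 35.5%. It was higher for 0 and 1 of the 10, against 2.21% and 1.58%. The median difference was -0.82 over the 10 genes and -1.003 over all genes after 20 Gy, and -1.02 and -0.85 in the combination, so that a lower ratio was common among all genes. With a pseudocount of 1 CPM, which is near the level of the rarest markers, many more ratios passed, all of them lower. They were 8 of 10 in allografts after 20 Gy (adjusted exact p = 0.0423 for each), 6 in the allograft combination, 7 in primaries after 20 Gy and 6 in the primary combination. The same numbers had an unadjusted exact p under 0.05, and so did 88.5%, 89.9%, 80.7% and 38.7% of all genes.

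The ratios of Batf3 and Ccl22 to Ptprc had higher medians in irradiated primaries. Batf3 was at a median of 1.957% of Ptprc in control primaries and 2.16% after 20 Gy, a difference of 0.15 on the log2 scale (exact p = 0.57) that was -0.11 with a pseudocount of 1 CPM. Ccl22 was at 1.27% in controls, 2.25% after 20 Gy and 3.13% in the combination, and the combination differed from the controls by 1.09 on the log2 scale (exact p = 0.0211, adjusted 0.0602, 4 of 8 tumours above every control). In allografts 4 against 4 tumours cannot give an exact p under 0.0286, which came to 0.0602 after adjustment over these 40 tests. There 6 genes had ratios below every control in all 4 tumours given 20 Gy with isotype, and so did 77.4% of all genes. Ptprc itself rose by 1.59 on the log2 scale in this comparison. The log2 ratio of Zbtb46 differed by -1.72 and that of Itgae by -1.76, while their own levels differed by -0.07 and -0.01. Ratios differed by -0.79 for Batf3, -1.88 for Fscn1, -1.71 for Siglech and -1.64 for Flt3. With the mean log2 level of all 8 leukocyte genes as the reference in place of Ptprc, none of the 3 calls held (adjusted exact p = 0.0699 for each), with differences of -1.20 and -1.24 for Itgae and -1.47 for Fscn1. Without 1 tumour, the call for Itgae after 20 Gy was lost in 9 of 16 cases (controls 2, 3, 6, 7 and 8, irradiated tumours 3, 4, 7 and 8) and that for Fscn1 in 8 (the same but irradiated tumour 8), with adjusted exact p of at most 0.0714. The Itgae call in the combination held in all 16.

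**Figure D3:**
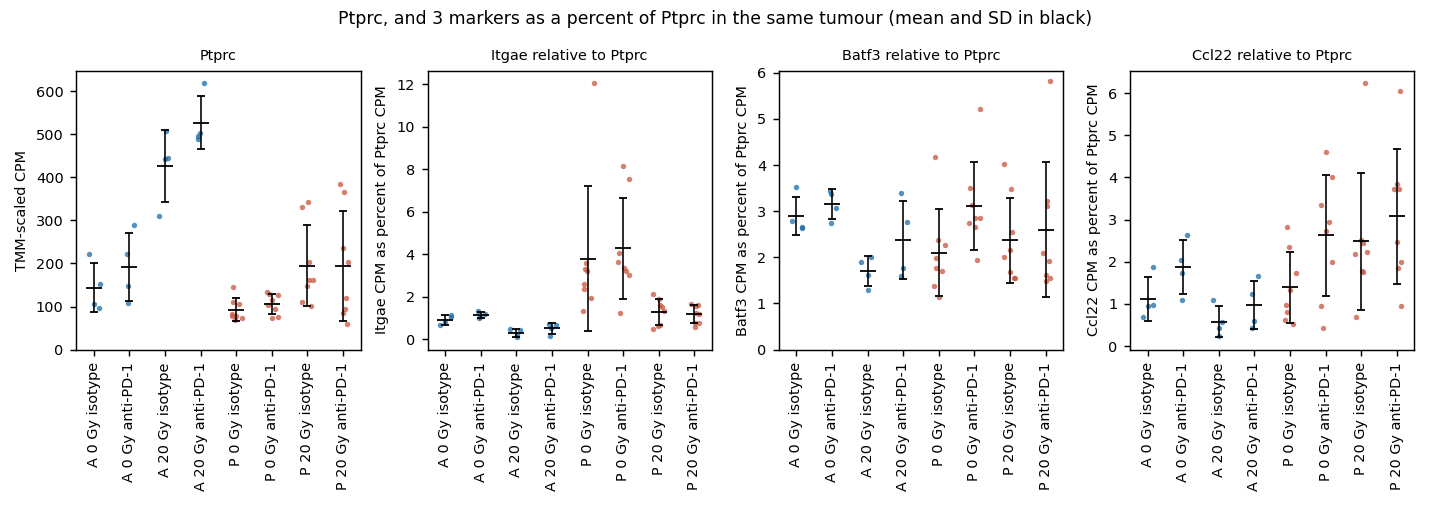
Ptprc as TMM-scaled CPM, and 3 markers as a percent of Ptprc in the same tumour, for the 4 allograft (A) and 4 primary (P) groups; coloured points are tumours, black marks are the mean and SD. Points are plotted without a pseudocount. With 0.1 CPM added to both genes, Itgae in primary tumours runs from 1.47 to 12.2% of Ptprc in the controls. It then runs from 0.564 to 2.18% after 20 Gy with isotype, so that the groups overlap.

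Markers of 1 subset were compared across tumours after each group's mean was removed, with 100000 shuffles within groups and adjustment over 20 pairs. Xcr1 and Clec9a varied together, with Pearson's r of 0.88 and Spearman's rho of 0.87 in the 32 primaries (permutation p = 1e-05, the smallest these shuffles can give, adjusted 5e-05). Without the 2 tumours farthest from the median of Xcr1, r was 0.85, and in the 30 primaries whose identifier starts with 4 it was 0.90. Itgae followed both, with r of 0.86 to Xcr1 and 0.84 to Clec9a in primaries (rho 0.88 and 0.86; permutation p = 1e-05). Batf3 was more loosely tied, at 0.55 to Xcr1 (rho 0.46, permutation p = 0.00298, adjusted 0.00596), 0.68 to Clec9a and 0.59 to Itgae.

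In the 16 allografts Xcr1 and Clec9a gave r of 0.81 and rho of 0.69 (permutation p = 0.00433, adjusted 0.00787), and 0.61 without the 2 farthest tumours (n = 14, permutation p = 0.086, adjusted 0.123). The pair thus did not pass without those 2 tumours, and the part of the smaller sample in this was not tested. In the 10 allografts whose identifier starts with 5, in groups with more than 1 such tumour, r was 0.99. Clec9a and Itgae, tied in primaries, gave r of 0.07 and rho of 0.06 (permutation p = 0.726). Whether the kinds differ in this was not tested. Batf3 and Xcr1 gave 0.78 and rho of 0.83 (permutation p = 0.0002, adjusted 0.000667), and 0.79 without the 2 farthest.

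Of the migratory markers, Ccr7 and Ccl22 varied together in both kinds, with r of 0.82 and rho of 0.81 in primaries (permutation p = 1e-05, adjusted 5e-05) and 0.84 and 0.84 in allografts (permutation p = 0.00169, adjusted 0.00376). Without the 2 farthest tumours they gave 0.78 and 0.72. Fscn1 ran against Ccr7, with r and rho both at -0.46 in primaries (permutation p = 0.018, adjusted 0.024) and at -0.75 and -0.77 in allografts (permutation p = 0.0147, adjusted 0.0211). In primaries r was -0.30 without the 2 farthest tumours (adjusted 0.177) and in allografts -0.74 (adjusted 0.0536), so neither passed without them. Flt3 and Zbtb46 gave 0.61 in primaries (rho 0.50, permutation p = 0.00063, adjusted 0.0018, 0.44 without the 2 farthest) and 0.52 in allografts, which did not pass (permutation p = 0.0666, adjusted 0.074). In all, 9 of 10 pairs passed in primaries and 8 of 10 in allografts, of which 3 did without the 2 farthest tumours. These counts include the negative pairs of Fscn1. The share of other gene pairs that would pass was not computed, so the counts do not set 1 subset apart. Over all 48 tumours, Ccr7 was tied more closely to the general marker Flt3 (r of 0.894) than to Ccl22 (0.827).

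**Figure D4:**
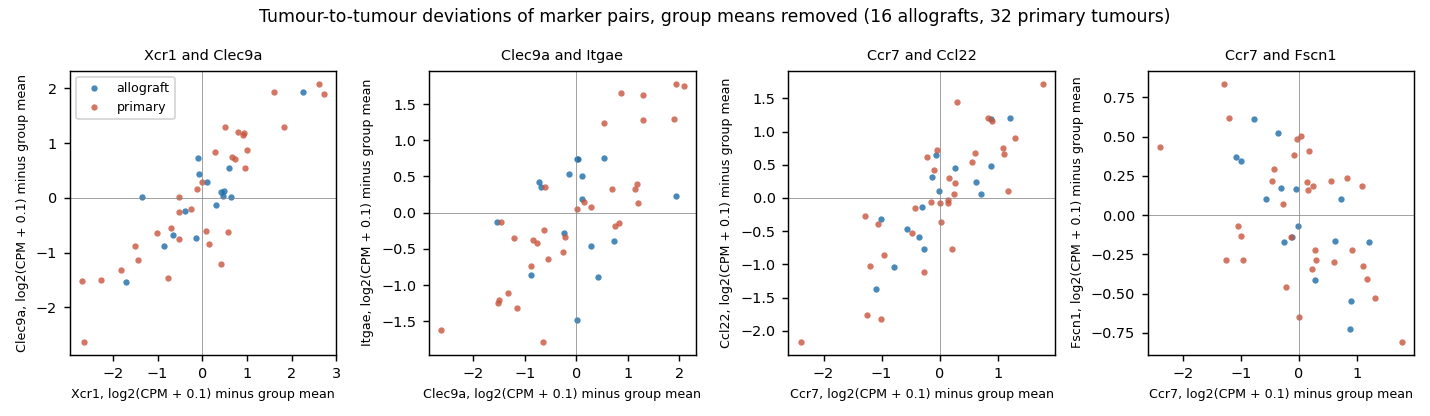
Deviation of each tumour from its group mean in log2(CPM + 0.1) for pairs of markers, with 1 gene on each axis; points are tumours, coloured by kind (16 allografts, 32 primaries). Xcr1 with Clec9a and Ccr7 with Ccl22 rise together, with r of 0.88 and 0.82 in primaries, and Fscn1 falls as Ccr7 rises.

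The genes whose log2 levels followed each marker most closely over all 48 tumours were listed by Pearson's r among 14406 genes, after removal of each group's mean, as a description that includes differences in leukocyte content between tumours. For Xcr1 they were Clec9a (0.872), Tlr11 (0.848), the toll-like receptor of type 1 dendritic cells, Naaa (0.834), another gene of that type, Bcl2l14 (0.813) and Itgae (0.804). For Clec9a they were Xcr1 (0.872), Tlr11 (0.827), Grap2 (0.814), Gm4759 (0.806) and Ciita (0.791), the master regulator of MHC class II. Siglech was closest to Ccr9 (0.935), Cd7 (0.925), Cd209d (0.907), Chdh (0.896) and Sla2 (0.887), of which Ccr9 and Cd209d are on the plasmacytoid list. Ccr7 was closest to Flt3 (0.894), Ltb (0.876), Bcl2l14 (0.874), Btla (0.873) and Spib (0.873). For Ccl22 the order was Mgl2 (0.838), Ccr7 (0.827), Bcl2l14 (0.785), Il12b (0.772) and Itgae (0.771).

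Other markers had closest genes that further cell types share or that no dendritic cell list holds. Itgae was closest to Btla (0.911), H2-Oa (0.866), Bcl2l14 (0.864), H2-DMb2 (0.852) and Cxcr3 (0.841), and Bcl2l14 was thus among the 5 closest of Xcr1, Itgae, Ccr7 and Ccl22. Flt3 was closest to Gimap1 (0.916), Btla (0.91), Cxcr3 (0.898), Tbc1d8 (0.896) and Jakmip1 (0.895). Batf3 was closest to Rp2 (0.817), Adap1 (0.801), Ipcef1 (0.8), Arhgap15 (0.8) and Plbd1 (0.78), none of them on the lists used here, although it also followed the other type 1 markers in the pairs above. Zbtb46 was closest to Sox13 (0.805), Neurl1b (0.783), Sema3g (0.777), the endothelial gene Fgd5 (0.775) and Prex2 (0.772). Fscn1 was closest to Mad1l1 (0.829), Pcbp4 (0.82), Fkbp10 (0.82), an enzyme of collagen folding, Carm1 (0.817) and Eif3b (0.804). Among the 5 closest genes, those of Xcr1, Clec9a, Itgae, Siglech, Ccl22 and Flt3 included markers of their own subset by the lists used here. For Itgae this was Cxcr3, on the type 1 list, and for Flt3 it was Btla, on the general list. The closest genes of Batf3, Fscn1 and Zbtb46 included no gene of the dendritic cell lists.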

How the data were processed

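The authors deposited 1 table of whole-number read counts per Ensembl gene for all 48 tumours, which served as the start of every computation; its name refers to a first run, and further runs are not analysed here. Per the submitters' processing notes, Trimmomatic 0.36, STAR, HTSeq and mm10 were used; settings, strand handling and annotation are not given in the sources used here, so values of overlapping, antisense or duplicated genes are uncertain. Libraries were strand-specific and made from poly(A) RNA, per the labels' protocols. Symbols came from GENCODE M21 (36796 of 36854 genes; 0 entries named no gene, 0 columns belonged to unlisted samples), and sequences from RefSeq. Within groups, all 136 pairs of tumours differed far beyond counting error (chi-square over its degrees of freedom 92.5 to 1110), so none was a duplicate. Reads carry no molecular identifiers, and floors cover counting error only.

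Counts were filtered with filterByExpr, scaled by TMM and tested with edgeR 4.0.16 (R 4.3.3), with 4 groups of a kind in 1 fit and BH adjustment over all genes tested. Comparisons of kinds used the 2 groups compared, and interactions with kind used all 48 tumours. The SE is the log2 fold change over the square root of F. DESeq2 1.42.0, unfiltered genes, other size factors, other sets of samples and omission of each tumour were tried. So were covariates (Xist above 10 CPM, identifier digit, mean log2 level of muscle genes). Only allografts were omitted in turn for interactions with kind. Ratios and pairs were tested with scipy 1.17.1. Code was tested on simulated data. Genes could be named by rule as the 10 members, the 5 closest genes per member, 7 partners and up to 3 called genes of smallest p per list and comparison. Members are given singly in the dose and combination comparisons and elsewhere by counts, ranges or extremes; of the called list genes, those printed were chosen after their values were seen. Members and lists were chosen with earlier results of these data known.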

Additional observations from a re-analysis of the deposited data

Results flagged for a closer look

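In 8 of 80 sets of tumours (10 genes in 8 groups), the highest tumour stood apart from the rest of its group by Dixon's criterion. Chance gives about 1 in 20, counting either end, for independent values with a normal spread. Here the values were CPM on a linear scale, and the genes share tumours. The 8 of 80 therefore cannot be set against that rate. Xcr1 was at 7.65 CPM in primary tumour 5 of those given 20 Gy with isotype (next highest 1.70) and at 4.999 in tumour 3 of those given 20 Gy with anti-PD-1 (2.23). Batf3 was at 13.3 CPM in the former tumour as well (7.09). Itgae was at 8.86 CPM in primary control 8, given 0 Gy with isotype (3.65). Ccl22 was at 3.12 CPM in primary control 6 (1.62) and at 14.4 in primary 4 of those given 20 Gy with anti-PD-1 (7.28). Siglech was at 29.8 CPM in allograft 2 of those given 20 Gy with anti-PD-1 (7.89) and at 9.36 in primary control 4 (5.15).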

How the results depend on the processing

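No paired analysis was possible because the replicate numbers follow accession order and pair no tumours. The identifier digit as a covariate was not run for primaries against allografts at 0 Gy with isotype, since the digit separates those groups. Counts of members called moved as follows. Unless a construction is named, the cause was not tested. For the other edgeR settings and omitted tumours, shares of all genes are not given here. A move there cannot be set against the number of genes called in the whole table. In the allograft combination (2 called), 1 was called with the muscle covariate, 0 with all 48 tumours in 1 fit and 1 with only the groups compared; without 1 tumour the count ran from 1 to 3. In the primary combination (2 called), 1 was called without a filter, 1 with Xist status, 4 with all 48 tumours, 1 with only the groups compared and 4 in DESeq2, and 1 to 4 without 1 tumour. For 20 Gy with isotype the count ran from 1 to 4 in primaries and from 0 to 1 in allografts without 1 tumour. Among primaries given anti-PD-1, the dose called 0 to 1 without 1 tumour (Fscn1, -0.70 without combination tumour 1). Between kinds, DESeq2 called 2 at 0 Gy with isotype and 1 with anti-PD-1, all 48 tumours called 1 at 20 Gy with anti-PD-1, and omission of a tumour gave 0 to 1 at 0 Gy with either antibody. With a pseudocount of 1 CPM, ratios to Ptprc passed for 8 members in allografts after 20 Gy, 6 in the allograft combination, 7 in primaries after 20 Gy and 6 in the primary combination; with 8 leukocyte genes as reference 0 passed in both primary comparisons. Without 1 tumour 0 to 3 and 1 to 3 ratios passed in primaries. In allograft pairs 3 of 8 calls held without the 2 farthest tumours, from fewer samples. All other counts stayed within 1.5 times.

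No called value changed sign. For 20 Gy with isotype in allografts, the digit covariate gave -0.11 for Clec9a, 0.75 for Itgae, 1.01 for Siglech and 0.046 for Zbtb46, and Xist status gave 0.088 for Itgae and 0.0074 for Siglech. In primaries Xist status gave -0.040 for Xcr1, and Zbtb46 was 0.0335 with DESeq2 size factors, 0.0445 with only the groups compared and 0.0333 in DESeq2. In the primary combination, Xist status gave -0.51 for Xcr1, -0.36 for Clec9a, -0.075 for Siglech and -0.059 for Flt3; the muscle covariate gave -0.35, -0.45, -0.31 and -0.22; all 48 tumours gave -0.014 for Xcr1. Between kinds Flt3 was 0.072 with the muscle covariate. For ratios, a pseudocount of 1 CPM gave -0.82 for Xcr1 in allografts after 20 Gy, -0.11 for Batf3 in primaries after 20 Gy, and -0.021 for Batf3 and -0.0445 for Ccr7 in the primary combination. The leukocyte reference gave 0.076 for Clec9a in allografts after 20 Gy and, in the allograft combination, 0.47 for Xcr1, 0.29 for Batf3, 0.019 for Ccr7 and 0.30 for Ccl22.

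Without 1 tumour, values that changed sign ranged as follows. Allografts after 20 Gy: Itgae -0.33 to 0.25, Siglech -0.31 to 0.12, Flt3 -0.23 to 0.28. Allograft combination: Zbtb46 -0.20 to 0.033. Primaries after 20 Gy: Xcr1 -0.37 to 0.68, Clec9a -0.053 to 0.70, Itgae -0.51 to 0.24, Zbtb46 -0.085 to 0.080. Primary combination: Xcr1 -0.71 to 0.20, Clec9a -0.29 to 0.30, Siglech -0.33 to 0.63, Flt3 -0.22 to 0.55, Zbtb46 -0.011 to 0.25. Between kinds: Clec9a -0.68 to 0.87, Flt3 -0.28 to 0.090. Ratios: Xcr1 -0.30 to 0.62 in allografts after 20 Gy and -0.60 to 0.32 in the combination, Ccr7 -0.086 to 0.26 in the primary combination. In the other 15 comparisons, 42 of 1050 values changed sign under an alternative and 153 of 2920 without 1 tumour, with 2 calls in each. For interactions with kind, the tumour left out was always an allograft. Xcr1 and Clec9a, at about 1 CPM, had medians of 53 and 37 counts a tumour and lows of 1 and 0, so their lowest values carry the widest counting error.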
